A study of Mus musculus with 6 samples.

Results

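The mTOR kinase complexes and their upstream regulators are described here through 10 genes, taken as the rows of the deposited gene count table whose gene name is Mtor, Rptor, Rictor, Mlst8, Tsc1, Tsc2, Rheb, Deptor, Akt1s1 or Depdc5. All 10 were found among the 54532 genes of the table, each on 1 row, and all 10 passed the filter on low counts. The libraries came from AML12 cells, a mouse hepatocyte line grown in culture and labelled wild type. One group of 3 libraries was labelled PP for 24 h, at 250 µg/ml in the design text, and the other group of 3 was labelled PA/OA for 24 h, the reagent used to set up the disease model, given by the submitters as 400 nM and 800 nM. The labels name only PP for the first group and do not say if PA/OA was added as well, so the comparison is between cells labelled PP and cells labelled PA/OA, and untreated cells were not analysed here. No label states that replicate libraries are separate cultures, and p-values therefore reflect a spread between libraries that could be technical only.

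The kinase mTOR joins amino acid supply, insulin and growth factor signals and energy state to cell growth. It works in a pair of complexes that share mTOR and its partner mLST8: complex 1 (mTORC1) is built on raptor, the product of Rptor, and drives protein and lipid synthesis while holding back autophagy, and complex 2 (mTORC2) is built on rictor, the product of Rictor, and phosphorylates AKT. The GTPase RHEB switches mTORC1 on at the lysosome, the TSC1-TSC2 complex switches RHEB off, DEPTOR binds and restrains mTOR, PRAS40 (Akt1s1) restrains mTORC1 until AKT phosphorylates it, and DEPDC5 is a subunit of GATOR1, which switches off the Rag GTPases when amino acids are scarce. In liver this pathway sits between feeding signals and the synthesis of lipid.

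Cells labelled PP had more Rictor and Tsc1 mRNA and less Rptor, Deptor, Akt1s1, Depdc5 and Mlst8 mRNA. Rictor stood 2.48-fold higher and Rptor at 61.3% of its PA/OA level, and the ratio of Rictor to Rptor counts per base was 5.64 to 6.26 in the libraries labelled PP, against 1.40 to 1.54 in those labelled PA/OA. Mtor, Tsc2 and Rheb did not pass the test under the main scaling. Of the 10 genes, 2 were higher, 5 lower and 3 not past the test at an adjusted p under 0.05 (edgeR's quasi-likelihood test, Benjamini-Hochberg adjustment over 15718 genes). Of all genes tested, 75% passed, 35.1% as higher and 39.9% as lower, so 7 of 10 passing is near the background and is no result about these genes as a group. Their median log2 fold change (PP minus PA/OA) was -0.26, beside -0.09 for all genes tested. The measured quantity is mRNA. Neither kinase activity nor phosphorylation was measured, and in bulk RNA fewer cells of a type and less RNA per cell cannot be told apart.

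The start sites of these genes are shown first for Rictor and Rptor, the subunits that define the 2 complexes, and for Tsc1 and Tsc2, which form 1 complex, because the partners of each pair differed in response. Each line gives 250 bases before and 50 bases after the annotated start in RefSeq (build GRCm38.p6), 5′ to 3′ on the strand of the gene, with CG dinucleotides in capitals. Rictor lies at chr15:6708131-6708430 and Tsc1 at chr2:28640983-28641282, both on the plus strand. Rptor lies at chr11:119602655-119602954 on the plus strand and Tsc2 at chr17:24632578-24632877 on the minus strand.
Rictor: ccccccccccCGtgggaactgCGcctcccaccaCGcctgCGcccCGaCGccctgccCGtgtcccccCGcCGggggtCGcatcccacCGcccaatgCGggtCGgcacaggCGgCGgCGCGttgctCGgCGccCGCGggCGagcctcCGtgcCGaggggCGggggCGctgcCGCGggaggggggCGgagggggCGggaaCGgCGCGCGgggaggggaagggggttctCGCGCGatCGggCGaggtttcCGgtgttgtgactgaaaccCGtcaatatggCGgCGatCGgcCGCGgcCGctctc
Rptor: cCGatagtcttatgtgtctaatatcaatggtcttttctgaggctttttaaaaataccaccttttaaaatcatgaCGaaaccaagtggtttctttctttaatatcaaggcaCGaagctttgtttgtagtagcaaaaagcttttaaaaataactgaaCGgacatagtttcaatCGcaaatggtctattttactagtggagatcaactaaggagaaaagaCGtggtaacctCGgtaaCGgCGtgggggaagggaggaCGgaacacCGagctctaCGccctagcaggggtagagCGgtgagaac
Tsc1: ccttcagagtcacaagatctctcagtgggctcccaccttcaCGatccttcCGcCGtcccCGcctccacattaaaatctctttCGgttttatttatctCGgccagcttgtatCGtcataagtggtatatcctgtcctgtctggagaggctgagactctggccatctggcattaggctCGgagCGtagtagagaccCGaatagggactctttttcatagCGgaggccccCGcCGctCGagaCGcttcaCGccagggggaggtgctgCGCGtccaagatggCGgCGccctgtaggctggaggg
Tsc2: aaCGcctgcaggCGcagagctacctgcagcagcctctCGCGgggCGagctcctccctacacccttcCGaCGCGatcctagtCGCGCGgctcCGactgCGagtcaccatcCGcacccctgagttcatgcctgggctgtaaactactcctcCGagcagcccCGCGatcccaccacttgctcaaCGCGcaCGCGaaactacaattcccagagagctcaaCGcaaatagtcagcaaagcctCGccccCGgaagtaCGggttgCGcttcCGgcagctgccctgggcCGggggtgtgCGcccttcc

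These windows differed in base composition. The Rictor window was 78.3% G or C and held 47 CG dinucleotides, the Rptor window was 41.7% G or C and held 13, that of Tsc1 was 57.3% with 20 and that of Tsc2 65% with 29, beside medians of 52.7% and 7 over 32851 RefSeq promoters. The table held a window for 9 of the 10 genes, the exception being Deptor. Whether composition goes with response was not tested. The Rheb window held 47 CG dinucleotides like that of Rictor, and the window of Depdc5, which was lower in PP, held 30. Those of Mtor, Mlst8 and Akt1s1 held 21, 19 and 27. A pair of motifs was searched on both strands. CACGTG, the E-box that TFEB and MYC bind, occurred in 1 of the 9 windows, that of Rheb, starting 96 bases before the start site, and in 7.15% of all promoters. TGATGNAA, a form of the element that ATF4 binds, occurred in 0 of the 9 and in 3.97% of all promoters. A match describes letters in a window and is not a binding site.

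Mtor codes for the kinase itself (chromosome 4, 148448611 to 148557683, build mm10). Values are given as CPM, counts scaled to library size, with the libraries adjusted by TMM, the trimmed mean of M-values. Mtor stood at 72.2, 67.9 and 72.3 CPM in PP replicates 1 to 3, against 76.2, 65.7 and 76.7 CPM in PA/OA replicates 1 to 3. The groups overlapped, and PA/OA replicate 2 was the lowest library of all. The log2 fold change was -0.04 ± 0.07 (SE; adjusted p = 0.59, edgeR). As a description of likeness, the protein-coding genes whose centred log2 CPM over the 6 libraries lay nearest to Mtor were Plekha6, Zfyve27 and Abcc3, at Euclidean distances of 0.071 to 0.078, but 2762 protein-coding genes lay within 0.5, so the pattern of Mtor was a common one.

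Rptor (chromosome 11, 119602905 to 119899576), whose product brings substrates to mTORC1, had 71.7, 65.9 and 63.9 CPM in the PP libraries, against 114, 105 and 109 CPM in the PA/OA libraries. Each PP value lay far below each PA/OA value. Rptor fell by 0.71 ± 0.06 on the log2 scale (SE; adjusted p = 1.19e-09, edgeR). An annotated antisense gene, Rptoros, lies over 84 exonic bases of Rptor. It held 30 counts over the PP libraries and 144 over the PA/OA libraries, where Rptor itself held 1703 to 3577 counts in each library.

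Rictor (chromosome 15, 6708379 to 6800401), the subunit that defines mTORC2, had 508, 481 and 503 CPM in the PP libraries, against 205, 204 and 191 CPM in the PA/OA libraries. The lowest PP library stood above the highest PA/OA library by more than any spread within a group. Rictor rose by 1.31 ± 0.05 on the log2 scale (SE; adjusted p = 2.11e-15, edgeR), and 93% of all genes tested had a lower log2 fold change. No other annotated gene lies over Rictor or Tsc1.

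Mlst8 (chromosome 17, 24473550 to 24479078), whose product is the WD40 subunit of both complexes, was the member with the fewest counts, 181 to 226 in the PP libraries and 296 to 372 in the PA/OA libraries. It had 7.62, 8.11 and 8.22 CPM in PP, against 11.9, 9.86 and 11.8 CPM in PA/OA. The groups did not overlap, with PA/OA replicate 2 nearest to PP. Mlst8 fell by 0.48 ± 0.14 (log2, SE; adjusted p = 0.00313, edgeR), and when the dependence of fold changes on abundance was taken out of every library it did not pass (-0.24, adjusted p = 0.115, edgeR). Bricd5, on the opposite strand, shares 997 exonic bases with Mlst8 in GENCODE vM21 and held 0 counts in both groups. With no strand setting given, the Mlst8 counts are also uncertain over those bases.

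Deptor (chromosome 15, 55112317 to 55259271) codes for an inhibitor that both complexes bind. It had 71.8, 55.2 and 74.7 CPM in the PP libraries, against 129, 134 and 116 CPM in the PA/OA libraries. PP replicate 2 was the lowest, and the coefficient of variation in PP, 15.7%, was the widest of any member in either group, but the groups stayed apart. Deptor fell by 0.91 ± 0.09 (log2, SE; adjusted p = 2.85e-09, edgeR), the largest fall of the 10 genes under TMM, and by 0.77 without PP replicate 2. Gm9920, on the opposite strand, shares 303 exonic bases with Deptor and held 25 counts over the PP libraries and 66 over the PA/OA libraries.

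Akt1s1 (chromosome 7, 44848991 to 44855421), which codes for PRAS40, an AKT substrate and mTORC1 inhibitor, had 33.7, 33.8 and 33.1 CPM in the PP libraries, against 48.6, 49.3 and 54.7 CPM in the PA/OA libraries. The PP libraries lay within 1 CPM of each other and below all PA/OA libraries. Akt1s1 fell by 0.60 ± 0.08 (log2, SE; adjusted p = 2.7e-07, edgeR). Tbc1d17 overlaps it by 89 exonic bases on the opposite strand and held 4127 counts over the PP libraries and 2476 over the PA/OA libraries. With no strand setting given, the Akt1s1 counts are uncertain over those bases.

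Tsc1 (chromosome 2, 28641228 to 28691167) codes for hamartin, which stabilises the TSC complex. It had 121, 107 and 116 CPM in the PP libraries, against 61.3, 52.3 and 52.1 CPM in the PA/OA libraries. Every PP value was above every PA/OA value. Tsc1 rose 2.08-fold, by 1.05 ± 0.07 on the log2 scale (SE; adjusted p = 1.16e-11, edgeR).

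Tsc2 (chromosome 17, 24595816 to 24632630) codes for tuberin, the subunit that makes RHEB hydrolyse GTP. It had 50.7, 50.7 and 46.8 CPM in the PP libraries, against 51.6, 46.1 and 55.2 CPM in the PA/OA libraries. The groups overlapped in full, and the log2 fold change was -0.04 ± 0.08 (SE; adjusted p = 0.608, edgeR). Pkd1, on the opposite strand, shares 693 exonic bases with Tsc2 and held 3954 counts over the PP libraries and 8375 over the PA/OA libraries. Since no use of strand is given, the Tsc2 counts are uncertain where reads of both genes were counted.

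Rheb (chromosome 5, 24802823 to 24842624), the GTPase that activates mTORC1, had the tightest values of the 10 genes. It stood at 110.1, 111 and 110.1 CPM in the PP libraries, against 107, 111 and 109 CPM in the PA/OA libraries. The groups overlapped, and the log2 fold change was 0.02 ± 0.05 (SE; adjusted p = 0.754, edgeR). Depdc5 (chromosome 5, 32863701 to 32994236) had 17.0, 17.6 and 16.8 CPM in the PP libraries, against 25.9, 23.4 and 27.3 CPM in the PA/OA libraries. No PP library reached the lowest PA/OA library, and Depdc5 fell by 0.58 ± 0.10 (log2, SE; adjusted p = 1.55e-05, edgeR). The genes that overlap Rheb or Depdc5 in the annotation share none of their exonic bases.

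Leaving out any 1 of the 6 libraries kept the direction and the call of the 7 genes that passed. The adjusted p reached at most 0.0202 in these fits, for Mlst8 (edgeR). For 7 of the 10 genes the groups did not overlap, as for 77.4% of all genes tested.

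**Figure D1:**
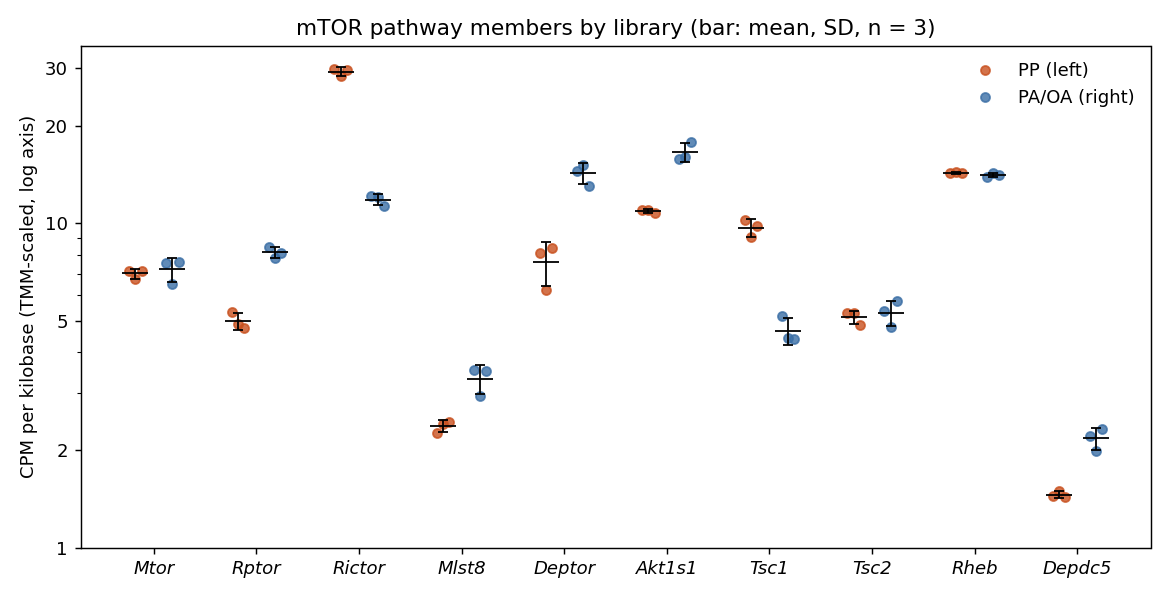
Level of each member in CPM per kilobase of its gene model on a log axis, with each library as a point (PP left, PA/OA right) and the mean with its SD (n = 3) as a bar. Rictor and Tsc1 lie higher in PP, Rptor, Mlst8, Deptor, Akt1s1 and Depdc5 lower, and the points of Mtor, Tsc2 and Rheb overlap.

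Per kilobase of gene model, the order of the members differed between the groups. In PP the highest level was that of Rictor, at 29.4 ± 0.851 CPM per kilobase (SD, n = 3), followed by Rheb at 14.3 ± 0.0789, Akt1s1 at 10.9 ± 0.133 and Tsc1 at 9.70 ± 0.602. Below them came Deptor at 7.57 ± 1.19, Mtor at 7.0 ± 0.249, Tsc2 at 5.14 ± 0.236, Rptor at 4.98 ± 0.300, Mlst8 at 2.37 ± 0.0957 and Depdc5 at 1.46 ± 0.0369. Among neighbours in that order, the libraries of Deptor and Mtor overlapped, as did those of Tsc2 and Rptor, and the others did not. In PA/OA the highest was Akt1s1 at 16.6 ± 1.09 CPM per kilobase, then Deptor at 14.2 ± 1.06 and Rheb at 14.1 ± 0.216, whose libraries overlapped, and Rictor at 11.8 ± 0.449. Next there was Rptor at 8.13 ± 0.321, above Mtor at 7.21 ± 0.615, and Tsc2 at 5.30 ± 0.479 overlapped with Tsc1 at 4.67 ± 0.444. Mlst8 at 3.31 ± 0.335 and Depdc5 at 2.17 ± 0.166 were again the lowest. Rictor thus held rank 1 in PP and rank 4 in PA/OA, and Rptor ranked below Mtor in PP and above it in PA/OA. Gene models pool all annotated exons, so levels per kilobase are rough between genes.

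The ratio of a pair of members within 1 library does not depend on a scaling by 1 factor for each library. Taking out the dependence of fold changes on abundance shifts genes by their level, and can move ratios. The Rictor to Rptor ratio of counts per base was 5.64, 5.81 and 6.26 in PP replicates 1 to 3, against 1.43, 1.54 and 1.40 in PA/OA replicates 1 to 3. No PP library came near the PA/OA range, and the ratio was 4.06-fold higher in PP, a difference of 2.02 on the log2 scale, with SDs of 0.078 in PP and 0.075 in PA/OA. The Rptor to Mtor ratio was 0.744, 0.728 and 0.664 in PP, against 1.12, 1.20 and 1.07 in PA/OA, and was thus below 1 in each PP library and above 1 in each PA/OA library. The Tsc1 to Tsc2 ratio likewise lay on opposite sides of 1, at 1.94, 1.72 and 2.01 in PP and 0.966, 0.923 and 0.767 in PA/OA. The side of 1 depends on the gene lengths used, which are rough between genes, and only the difference between groups is free of them.

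Rheb set against the subunits of its inhibitor gave different answers for each. The Rheb to Tsc1 ratio was 1.39, 1.59 and 1.46 in PP, against 2.68, 3.24 and 3.21 in PA/OA, a log2 difference of -1.04. By contrast, the Rheb to Tsc2 ratio was 2.71, 2.73 and 2.93 in PP and 2.59, 2.99 and 2.46 in PA/OA, and the groups overlapped. Set against Mtor, the difference of the log2 ratio (PP minus PA/OA) was -0.88 for Deptor, -0.56 for Akt1s1, -0.54 for Depdc5 and -0.44 for Mlst8, each without overlap. With the dependence on abundance taken out, the log2 fold changes were -1.25 for Deptor, -0.76 for Akt1s1 and -0.53 for Depdc5. Mlst8 then had -0.24 and Mtor -0.33, so Mlst8 no longer fell by more than Mtor. Of 9 ratios compared, 8 reached p = 0.1 by the exact two-sided permutation test, the smallest that 3 against 3 libraries allow, and Rheb to Tsc2 had p = 0.5 (0.112 and 0.5 after adjustment over the 9). With this many libraries none of these ratios could pass 0.05.

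**Figure D2:**
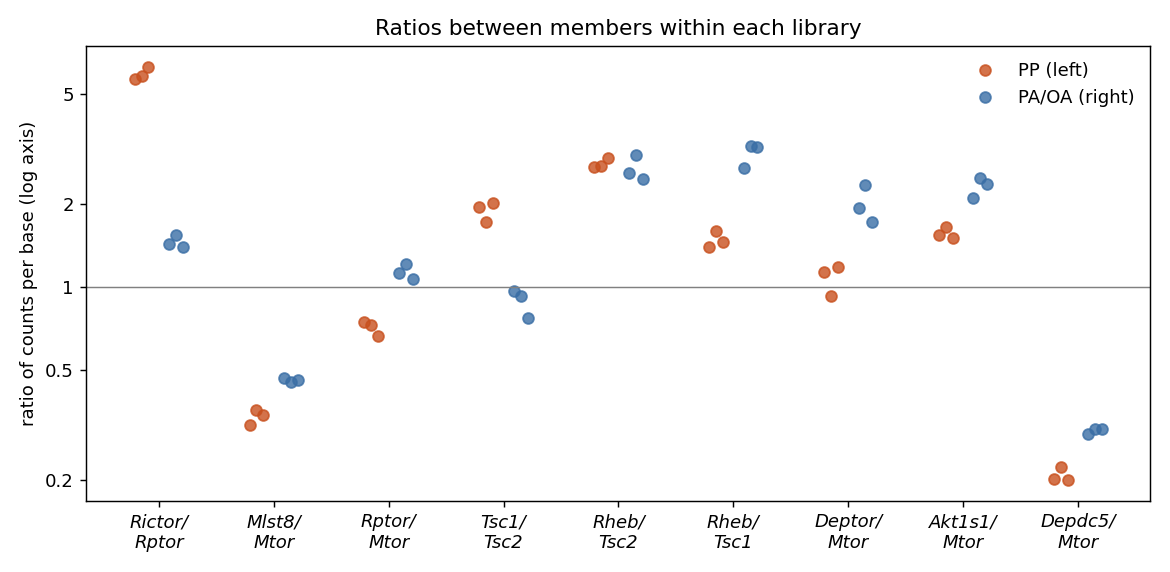
Ratio of counts per base between pairs of members within each library on a log axis, with PP libraries left and PA/OA libraries right, and a line at 1. Only the Rheb to Tsc2 points overlap between the groups; Rictor to Rptor lies between 5.64 and 6.26 in PP and between 1.40 and 1.54 in PA/OA.

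The calls of Mtor, Tsc2 and Rheb depended on the scaling. TMM factors were 0.849 to 0.867 in PP and 1.15 to 1.17 in PA/OA, so scaling by library size only moved the median of all genes by -0.44 on the log2 scale, and upper-quartile scaling moved it by -0.24. Rheb, at 0.02 under TMM, was then called lower, at -0.41 with library size only and -0.22 with upper-quartile scaling. Mtor was also called lower, at -0.48 and -0.28, and Tsc2 at -0.48 and -0.28, which made 8 of the 10 genes lower and 2 higher in either setting. Of all genes 56.7% were lower and 20.6% higher with library size only, and 48.9% lower and 27% higher with upper-quartile scaling. Of all calls 46.8% were higher with TMM, 26.6% with library size only and 35.6% with upper-quartile scaling. Measured from the median of all genes, these 3 genes stood at 0.04 (Mtor), 0.04 (Tsc2) and 0.11 (Rheb) under each of the 3 scalings, and Rictor at 1.40, Tsc1 at 1.14, Rptor at -0.62 and Deptor at -0.83. That sameness is built in, since the 3 scalings differ only by 1 factor for each library. With the abundance trend removed, Mtor stood at -0.34, Tsc2 at -0.26 and Rheb at -0.35 from the median.

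With the trend with abundance removed from each library, the median of all genes moved by 0.15, and 35.4% of all genes were lower and 35.7% higher. Rictor kept a log2 fold change of 0.79 and Tsc1 of 0.75, Rptor stood at -1.03 and Deptor at -1.25, and Mtor (-0.33), Rheb (-0.34) and Tsc2 (-0.25) were called lower. The calls of Rictor, Tsc1, Rptor, Deptor, Akt1s1 and Depdc5 were the same under all 4 scalings.

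**Figure D3:**
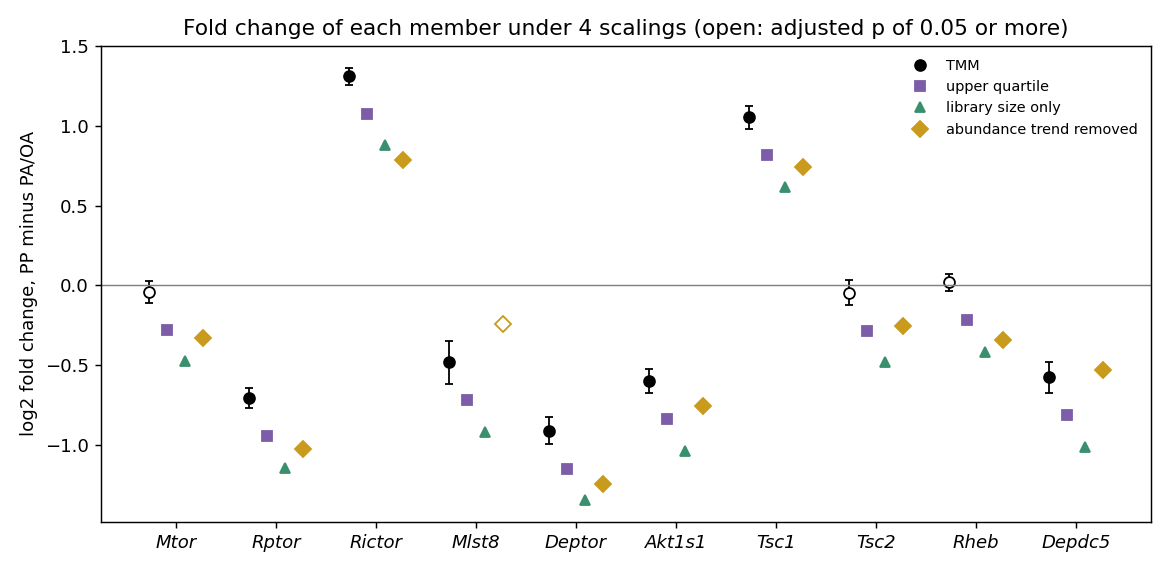
log2 fold change (PP minus PA/OA) of each member under TMM (black, bar: SE), upper-quartile scaling, library size only and removal of the abundance trend, with filled symbols where the adjusted p was under 0.05. Rictor and Tsc1 are above 0 under all 4, and Mtor, Tsc2 and Rheb pass only away from TMM.

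Of 70 other genes of mTORC1 control found in the table, in 11 lists written from general knowledge, 66 were tested, of which 31 were higher, 24 lower and 11 not past the test (edgeR, adjusted over all genes), where 35.1% of all genes tested were higher and 39.9% lower. Since 75% of all genes tested passed in either direction, the counts of the single lists below are descriptions and no result about a list. Their median log2 fold change was 0.15, beside -0.09 for all genes. Scaled by library size only, 35 of them were lower and 21 higher, where 56.7% of all genes were lower and 20.6% higher.

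Mapkap1, which codes for the mTORC2 subunit SIN1, fell by 0.57 ± 0.07 (log2, SE) while Rictor rose, and the mTORC2 genes Prr5 and Prr5l were too low to test. Of the TTT genes, whose products assist the assembly of mTOR and related kinases, Telo2 stood at 2.83 ± 0.831 CPM in PP and 30.9 ± 0.960 CPM in PA/OA (SD, n = 3), a log2 fold change of -3.46, where the members ran from -0.91 to 1.31. Tti2 fell by 0.66 and Tti1 had -0.09 (adjusted p = 0.356, edgeR). Tbc1d7, the third TSC subunit, fell by 0.67 where Tsc1 rose, and the Rheb paralogue Rhebl1 rose by 0.56, a call lost with library size only (0.12, adjusted p = 0.416, edgeR).

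On the amino acid branch, the partners of Depdc5 in GATOR1 went opposite ways: Nprl2 stood at 19.5 ± 1.03 CPM in PP and 10.3 ± 0.373 CPM in PA/OA, and Nprl3 at 19.0 ± 1.87 CPM in PP and 38.1 ± 0.662 CPM in PA/OA. Nprl3 shares 1340 exonic bases with Mpg on the opposite strand, so its counts are uncertain. Of KICSTOR, the complex that holds GATOR1 at the lysosome, BC048403 fell by 1.53, Itfg2 by 1.06 and Kptn by 0.80, and these genes were lower under each of the 4 scalings. Of 5 genes of GATOR2, which opposes GATOR1, Seh1l rose by 0.81 and Mios fell by 1.22. Wdr24 rose by 0.20 with TMM but was called lower with library size only (-0.23) and did not pass in 11 of the 17 other settings or sets of libraries. Of 8 amino acid sensor genes 4 were higher and 3 lower, with Bmt2, which codes for the S-adenosylmethionine sensor SAMTOR, up by 1.66 and the leucine sensor gene Sesn2 down by 0.90. Of 8 Rag and Ragulator genes tested 7 were higher, led by Rragc (1.34) and Rraga (1.15), where 35.1% of all genes were higher, while Rragb fell by 1.70 and Rragd was too low to test. By library size alone, as by upper quartile, 4 of these 8 were higher, where 20.6% and 27% of all genes were. Rragb was low, at 1.42 CPM in PP and 4.57 CPM in PA/OA, where Rraga had 129 and 58.1 CPM.

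On the growth factor and stress branches that act on TSC, 5 of 6 genes tested were higher and none lower with TMM, where 35.1% and 39.9% of all genes were, and 4 were higher and 1 lower under the other 3 scalings, where 20.6% to 35.7% of all genes were higher. The list was not split by whether a product activates or inhibits TSC, so this count gives no direction of input to TSC. Ddit4, which codes for REDD1, an activator of TSC, stood at 1094 ± 41.1 CPM in PP and 347 ± 29.3 CPM in PA/OA, and Rps6ka1, a kinase gene, rose by 1.64 and Prkaa2 by 0.97. Prkaa2 was low, at 5.37 CPM in PP and 2.73 CPM in PA/OA. Its paralogue Prkaa1 had 102 and 106 CPM and did not pass (-0.05, adjusted p = 0.47, edgeR). Ddit4l was too low to test. Of 13 genes of insulin and PI3K signalling 4 were higher and 6 lower, with Irs2 up by 1.11 and Irs1 down by 1.20. Irs1 was low, at 2.71 CPM in PP and 6.19 CPM in PA/OA, where Irs2 had 436 and 203 CPM. Of 14 genes of mTORC1 substrates and outputs 7 were higher and 4 lower, and 75% of all genes passed in either direction, with Eif4ebp1, a translation repressor that mTORC1 inactivates, at 899 ± 49.5 CPM in PP and 408 ± 18.5 CPM in PA/OA, and Tfeb up by 1.09 and Eif4b by 0.95. By library size alone, 5 of these 14 were higher and 7 lower. In the annotation another gene also shares exonic bases with Tti2, Rhebl1, Seh1l, Itfg2, Rragc, Irs1, Irs2 and Rps6ka1, so their counts are uncertain too.

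**Figure D4:**
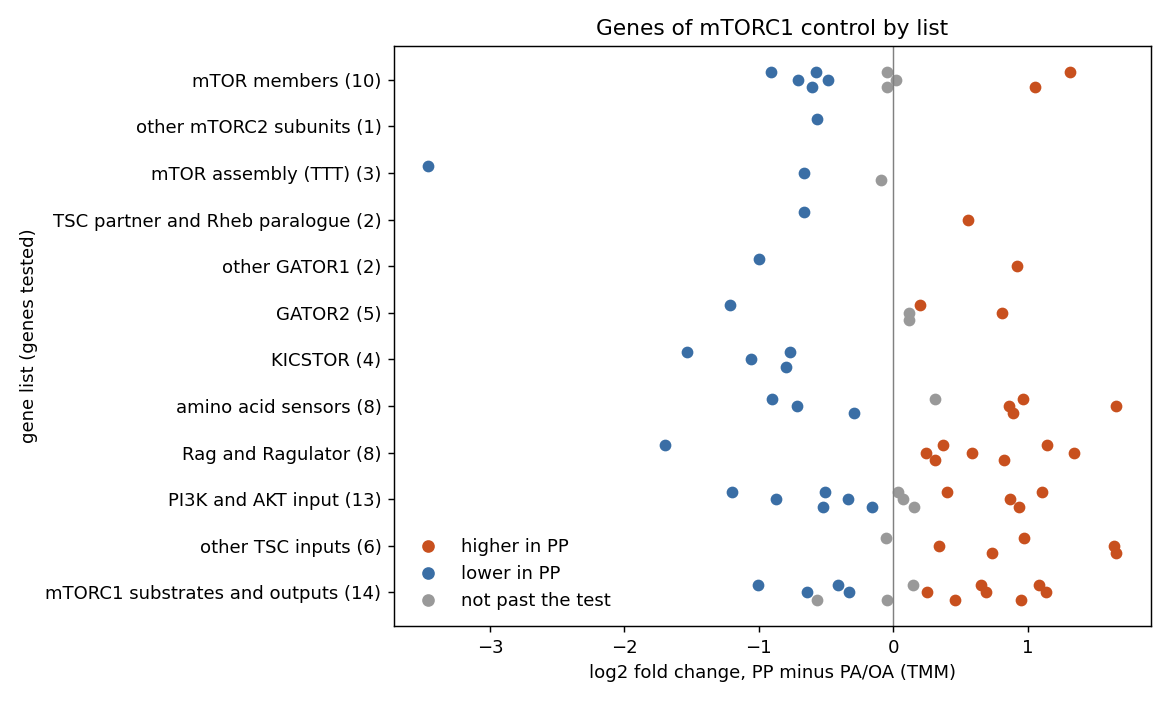
log2 fold change (PP minus PA/OA, TMM) of each tested gene, one row per list with its number of genes, coloured by whether it was higher, lower or not past the test. The KICSTOR genes lie below 0, 7 of 8 Rag and Ragulator genes above it, and Telo2 lies at -3.46.

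Library totals were 27418502 to 32560589 counts in PP and 24113169 to 26825673 in PA/OA. Of 9 hepatocyte markers 2 were higher in PP (Krt8 and Krt18) and 4 lower (Apob, Hnf4a, Cebpa and Alb), where 35.1% of all genes tested were higher and 39.9% lower. The summed level of the 9 ran from 3724 to 4074 CPM in PP and from 3011 to 3223 CPM in PA/OA. Most of that sum was Krt8 (1994 CPM in PP, 1775 in PA/OA) and Krt18 (1730 and 975), so it does not show the fall of the 4 lower genes. Apob had 75.8 CPM in PP and 246 CPM in PA/OA. Alb had 9.90 ± 1.38 CPM in PP and 12.2 ± 1.36 CPM in PA/OA, and Hnf4a had 26.8 ± 1.54 CPM in PP and 71.7 ± 5.06 CPM in PA/OA. Alb passed only narrowly (adjusted p = 0.0489, edgeR), and Cebpa was very low, at 0.0483 CPM in PP and 0.643 CPM in PA/OA. Apoa1, Trf and Ttr did not pass, with log2 fold changes of 0.42, 0.51 and -0.92. All 4 tested of 5 cholangiocyte markers were higher in PP, where 35.1% of all genes tested were. Their summed level ran from 4053 to 4496 CPM in PP and from 2429 to 2554 CPM in PA/OA, with Epcam at 0. Krt19 made up most of that sum, at 3513 CPM in PP and 2011 CPM in PA/OA. With 75% of all genes passing in either direction, these marker counts are descriptions only. Of 5 macrophage markers Cd68 was higher and Adgre1 and Clec4f had no count, with sums of 26.6 to 29.5 CPM in PP and 3.13 to 3.79 CPM in PA/OA. Most of that sum was Cd68, at 27.3 CPM in PP and 2.78 CPM in PA/OA. Csf1r had 0.474 and 0.522 CPM and did not pass (-0.17, adjusted p = 0.797, edgeR), and Ptprc was too low to test. The sum thus shows 1 gene and not the macrophage markers as a set. Stellate markers summed to 1.77 to 3.57 CPM in PP and 3.90 to 5.32 CPM in PA/OA, and endothelial markers to 0.437 to 0.941 and 0.638 to 1.50 CPM. The part of these shifts in the values of the mTOR genes was not tested.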

How the data were processed

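RNA of 6 AML12 libraries was sequenced. The authors deposited 1 table of raw counts by gene, made with featureCounts on build mm10, per the submitters' processing notes, which also name DESeq2 1.16.1 without its role. Aligner, annotation and strand setting: not given in the sources used here. Gene lengths in bases are those of the deposited table.

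Groups came from the treatment labels. In R 4.3.3 with edgeR 4.0.16, filterByExpr kept 15718 genes, TMM gave the scaling, and the difference between PP and PA/OA was tested with the quasi-likelihood F-test (two-sided), with Benjamini-Hochberg adjustment over all genes tested and a threshold of 0.05. The SE is the absolute fold change divided by the root of F. Ratios used an exact two-sided permutation test. The 10 members and the lists were chosen with earlier results of these data known. Of each list, up to 3 passing genes with the largest change and an average log2 CPM of at least 1 were named, and genes too low to test; others were named after their values were seen, and some genes of the lists are not reported here. Overlaps came from GENCODE vM21 (GRCm38), whose coordinates matched the table for 9 of 10 members, Mlst8 being the exception. Replicates were not copies of 1 library, with a chi-square per gene of 3.03 to 4.72 on halved counts. Alternatives were DESeq2 1.42.0 size factors and test, library size only, upper-quartile scaling, limma-voom (limma 3.58.1), other filters, a replicate block, protein-coding genes only, halved counts, removal of a lowess trend (span 0.4), and each library left out.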

Additional observations from a re-analysis of the deposited data

How the results depend on the processing

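Of the 10 members, 2 were higher and 5 lower, and 8 were lower with library size only and with upper-quartile scaling, where 2 remained higher. Over all genes 3235 were higher with library size only, against 5510 with TMM. The signs of genes near 0 turned: with 1 library left out Mtor ran from -0.109 to 0.007 and Tsc2 from -0.109 to 0.019, and Rheb at -0.41 with library size only, -0.22 with upper-quartile scaling, -0.034 with at least 1 CPM in 3 libraries, -0.063 among protein-coding genes, -0.018 with halved counts and -0.34 with the abundance trend removed. Wdr24 stood at -0.23 with library size only and -0.036 with upper-quartile scaling. With the replicate number as a block, the 10 members kept their calls, and 11515 genes were called in place of 11785. Deviations of same-numbered libraries from their group means correlated at -0.023 to 0.005, so no shared effect of the replicate number was seen. With 3 libraries in each group this cannot tell if same-numbered libraries were set up together, and no label says so. Leaving out any 1 library left 2 members higher and 5 lower, and the Rictor to Rptor log2 difference ran from 1.98 to 2.06. Adding 0.5 counts moved no ratio by more than its spread. Mlst8 held 181 to 226 counts in the PP libraries and 296 to 372 in the PA/OA libraries, the fewest of the 10 members.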
